A study of Mus musculus with 12 samples.

Results

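This account follows 38 transcripts that mark cells of the tissue around T cells, measured in RNA from sorted mouse CD4+ T cells. The genes were taken by symbol from a table of 24062 genes, and all 38 were found. They comprise 20 genes of fibroblasts, mural cells and extracellular matrix, 12 genes of lung and other epithelium, and 6 genes of endothelium. Every group came from C57BL/6 mice and was sorted from CD4-enriched cells into GFP-positive regulatory T cells (Treg) or GFP-negative conventional T cells (Tconv). GFP stands in for the Treg lineage here, and the labels do not name the reporter allele behind it. Tumour-bearing (TB) mice were sampled 3 weeks after 500000 TC-1 cells, a transplantable line derived from mouse lung epithelium, had been given into the tail vein, and their tumour and spleen were used. Normal mice gave spleen only. The groups were thus tumour Treg, tumour Tconv, TB spleen Treg, TB spleen Tconv, normal spleen Treg and normal spleen Tconv, with 2 libraries each (n = 2 for every group value below). Nothing in the labels ties each library to a mouse of its own, and the p-values therefore reflect library-to-library spread only, which may be technical. Tumour libraries carry the letters LG in their descriptions, possibly for lung. TC-1 cells and the lung cells of the host share the mouse genome and cannot be told apart by these counts, and no library of TC-1 cells, whole tumour or tumour-free lung was analysed here.

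Fibroblasts build the tissue scaffold: they secrete fibrillar collagens, collagen VI, fibronectin and small proteoglycans, while basement membranes under epithelium and around vessels are made of collagen IV. In lung, club cells of the airways secrete Scgb1a1 and Scgb3a2, and alveolar type II cells make the surfactant proteins. T cells are not known as a main source of any of these products. Vessel lining is marked by Cdh5, Kdr, Vwf, Cldn5, Tek and Eng, the last of which other cells make too.

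Total counts ran from 18624132 to 24111546 per library, and 13509 genes had enough counts to be tested. The sort held in the T cell genes. Foxp3, the lineage factor of Treg, ran from 988.8 to 1246 CPM (counts per 1000000 counts of a library) across the 6 Treg libraries and from 11.5 to 19.6 CPM across the 6 Tconv libraries. The summed counts of 9 T cell genes (Cd4 and Cd3e among them) took 5371 to 5866 of every 1000000 counts in the 4 tumour libraries, all below the 6049 to 7017 of the 8 spleen libraries. The tumour Tconv libraries stood apart from each other: 5.618% of 10734 genes with at least 100 counts were over 2 times higher in library 2 than in library 1, against 0.1995% of 11025 genes in tumour Treg. Of 27 Tconv ratios or lower bounds of tumour over TB spleen among the 38 genes, 18 fell by over 1.5 times without library 2 and 5 rose by over 1.5 times without library 1. Leaving out either TB spleen Tconv library, where counts were near 0, moved 24 of the 27 by as much. In Treg, leaving out either TB spleen library moved all 24 such values, and leaving out tumour library 1 or 2 moved 2 or 3.

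The fibroblast, mural and matrix class held most of the counts of the 38 genes at the tumour site. Per 1000000 counts of the total, its 20 genes summed to 1212 and 1329 in tumour Treg libraries 1 and 2, and to 704.9 and 1787 in tumour Tconv libraries 1 and 2. In the 8 spleen libraries the same sum lay between 0.8855 and 7.942, from 19 to 159 counts. The 4 tumour libraries thus all lay far above all 8 spleen libraries, and tumour Tconv held both the lowest and the highest tumour value. In a bulk library, fewer cells of a type and less RNA per cell cannot be told apart. Fibroblast, mural and matrix genes made up 87.4% to 93.7% of all counts of the 38 genes in the tumour libraries. Sums of counts are not scaled by the number or length of the genes. Genes of this class span 1187 to 12426 exon bases and those of the epithelial class 476 to 4574. The share is therefore one of counts and not of transcript molecules.

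The epithelial class was far lower in summed counts, which are not scaled by gene length. The 11 genes other than Epcam summed to 141.6 and 94.3 per 1000000 counts in tumour Treg and to 87.2 and 102.3 in tumour Tconv, against 0.698 to 2.409 in spleen. Epcam was kept out of this sum because its counts in spleen Treg were near those in tumour Treg. With Epcam the sums of all 12 genes were 89.8 to 167.2 in tumour and 2.796 to 29.1 in spleen. The 6 endothelial genes summed to 7.175 and 8.795 per 1000000 counts in tumour Treg and to 5.154 and 13.9 in tumour Tconv, against 0.5137 to 3.356 in spleen. Without Eng, which spleen Tconv held at counts near those of tumour Tconv, the sums of 5 genes were 3.029 to 10.8 in tumour and 0.1284 to 1.063 in spleen. Each class was therefore higher in every tumour library than in every spleen library, with or without these genes.

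**Figure D1:**
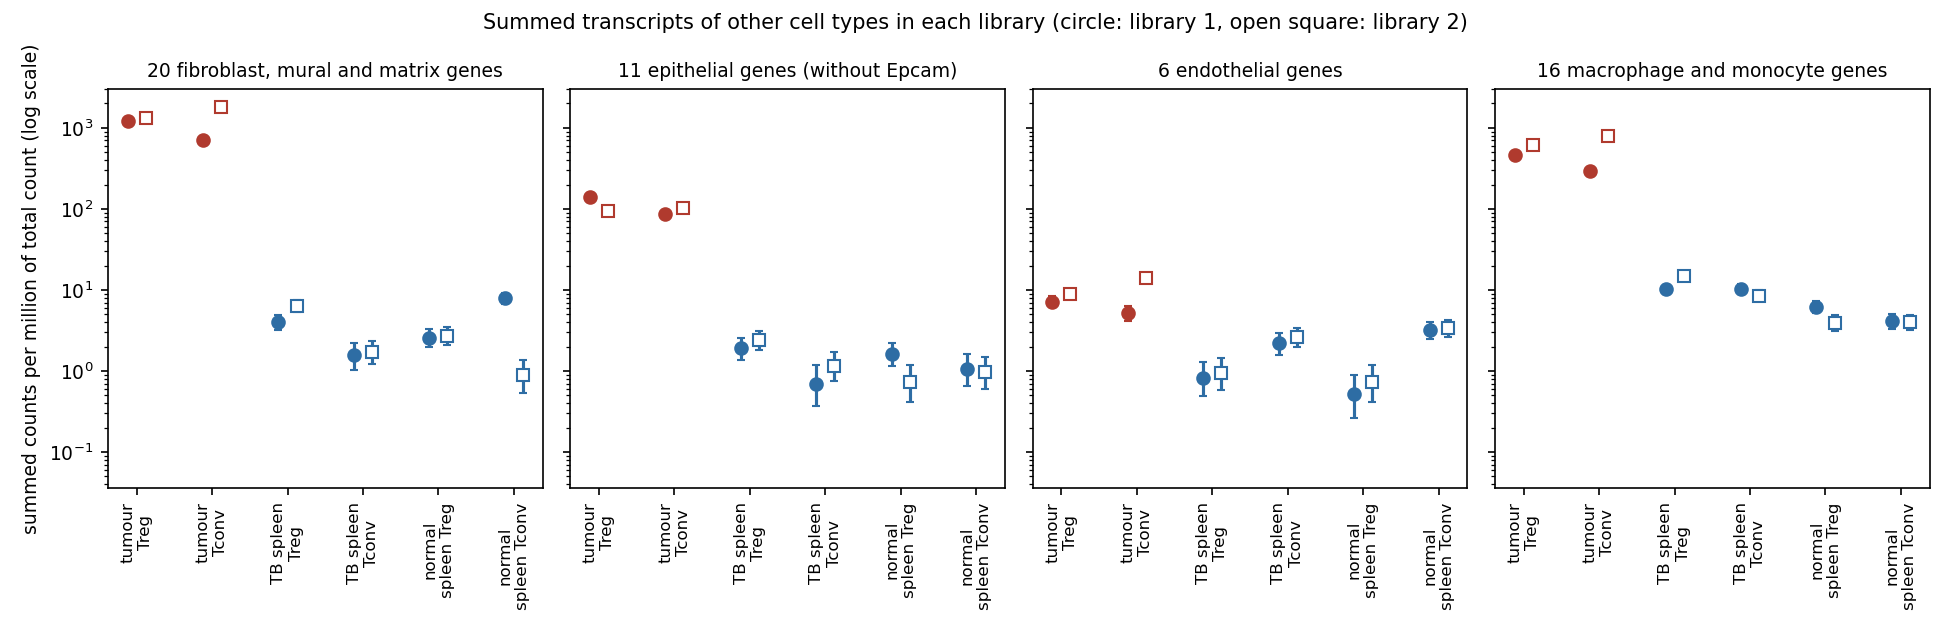
Summed counts per 1000000 of the total count (log axis) of the 20 fibroblast, mural and matrix genes, the 11 epithelial genes without Epcam, the 6 endothelial genes and 16 macrophage and monocyte genes, in each of the 12 libraries; circles are library 1, open squares library 2, red is tumour, blue is spleen, and bars are exact 95% binomial intervals, which cover counting error only. Fibroblast genes sit between 704.9 and 1787 in tumour and at or under 7.942 in spleen, and tumour Tconv libraries 1 and 2 are as far apart in the macrophage panel as in the fibroblast panel.

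The fibrillar collagens were led by Col3a1, the chain of collagen III (chromosome 1, 45311538 to 45349706, plus strand, GRCm38). It had 4300 and 4036 counts in tumour Treg libraries 1 and 2 and 1689 and 5205 in tumour Tconv libraries 1 and 2, while the 8 spleen libraries had 0, except 1 count in TB spleen Tconv library 2 and 3 counts in normal spleen Tconv library 1. Setting the empty spleen group to a floor of 3 counts in all, tumour Treg was at least 2909-fold higher than TB spleen Treg (adjusted p = 4.62e-07, edgeR quasi-likelihood test). For Tconv the ratio of tumour to TB spleen was 7188 (95% counting interval 1290 to 284000; adjusted p = 9.82e-07), over the 1 count in TB spleen. It was 3951 without tumour Tconv library 2, and without TB spleen Tconv library 2, which held that count, tumour was at least 1109-fold higher. Lower bounds also shrink when any empty spleen library is left out, because the floor of 3 counts then stands over 1 library (for Col3a1 in Treg, to 1430 and 1480). A gene with at least 1689 counts in every tumour library was thus at or near 0 in spleen. The 150 bases before its start site are shown because Col3a1 was the collagen with the highest level per length. Capitals mark a match to the letters TATAAA 117 bases before the start, whose use as a promoter element was not tested. The sequence is RefSeq's, build GRCm38.p6, chr1:45311388-45311537, plus strand, 5′ to 3′:
Col3a1: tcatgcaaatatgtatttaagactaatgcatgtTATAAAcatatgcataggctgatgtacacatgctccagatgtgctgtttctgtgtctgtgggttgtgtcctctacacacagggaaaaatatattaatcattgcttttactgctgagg

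TATAAA on either strand within 250 bases before the start was found in 3 of the 23 members that have a RefSeq promoter window (Col3a1, Postn and Sftpa1), and in 12.4% of 32851 windows. CCAAT, which reads ATTGG on the other strand, was in 4 of 23 members (Col1a2, Col4a1, Col4a2 and Cldn5) and in 33.8% of windows. The E-box CACTTG, whose other strand reads CAAGTG, was in Tek and Sftpa1 and in 11.6% of windows. GGAAGT, whose other strand reads ACTTCC, was in Eng, Kdr, Col6a1 and Krt8 and in 19.7% of windows. These matches are letters in a window and carry no measurement of binding.

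Col1a1 and Col1a2, the chains of collagen I, differed in how far spleen lay below tumour. Col1a1 stood at 67.4 and 50.5 CPM in tumour Treg and at 31.8 and 70.8 CPM in tumour Tconv. In spleen it was at 1.349 and 1.524 CPM in TB Treg, 0.5732 and 0.1795 CPM in TB Tconv, 1.38 and 1.38 CPM in normal Treg, and 0.1528 and 0.1907 CPM in normal Tconv. All 4 spleen Treg libraries were above all 4 spleen Tconv libraries, and all 8 were far below tumour. Tumour against TB spleen gave a log2 fold change of 5.36 ± 0.38 (SE) in Treg and 7.13 ± 0.48 in Tconv (adjusted p = 2.75e-07 and 2.80e-07). For Tconv the value was 6.42 without tumour Tconv library 2, 8.12 without TB spleen Tconv library 1 and 6.47 without TB spleen Tconv library 2. Col1a2 had 2182, 1868, 847 and 2135 counts in tumour Treg libraries 1 and 2 and Tconv libraries 1 and 2, and at most 9 counts in any spleen library. Its log2 change was 8.32 ± 0.45 in Treg (adjusted p = 3.04e-08), and its Tconv ratio was 3109 (counting interval 557.6 to 122800), or 1981 without tumour Tconv library 2 and at least 479.5 without TB spleen Tconv library 2.

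The ratio of Col1a1 to Col1a2 counts, which collagen I needs together, was not the same at both sites. It was 0.7117, 0.6194, 0.6647 and 0.7311 in tumour Treg libraries 1 and 2 and tumour Tconv libraries 1 and 2. In spleen Treg it was 6.6 and 4.5 in TB mice and 4.714 and 3.444 in normal mice, from 31 to 36 Col1a1 counts a library. Over all spleen Treg libraries the counts were 133 to 29, a ratio of 4.586 (counting interval 3.051 to 7.111), against 0.6874 (0.6626 to 0.7132) over the tumour libraries. The intervals cover counting error only and do not overlap.

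Collagen IV is encoded by Col4a1 and Col4a2, which lie head to head on chromosome 8 with their first exons on opposite strands. Shown are the 30 bases that hold both starts, because the annotated genes start within it, though where transcripts began was not measured; capitals mark the 22 bases that belong to both annotated transcripts (GRCm38.p6, chr8:11312801-11312830, plus strand, 5′ to 3′):
Col4a1 and Col4a2: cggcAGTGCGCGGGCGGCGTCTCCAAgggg

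Col4a1 had 2421 and 2636 counts in the tumour Treg libraries and 1124 and 3338 in the tumour Tconv libraries, and Col4a2 had 1903 and 2243, and 1040 and 2989. Their ratio was therefore 1.272, 1.175, 1.081 and 1.117 in the 4 libraries, while each gene was over 2 times higher in tumour Tconv library 2 than in library 1. In spleen, TB Treg had 0 counts of both genes in both libraries, and the highest value was 11 counts of Col4a1 in normal Tconv library 1. Tumour Treg was at least 1765-fold higher than TB spleen Treg for Col4a1 and at least 1447-fold higher for Col4a2.

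Collagens V and VI were likewise high at the tumour. Col5a1 and Col5a2, which regulate fibril width, were at 37.4 ± 2.56 and 39.0 ± 0.25 CPM (mean ± SD) in tumour Treg and at 36.6 ± 17.5 and 37.1 ± 20.3 CPM in tumour Tconv. The collagen VI chains Col6a1, Col6a2 and Col6a3 were at 69.2 ± 5.44, 39.7 ± 2.53 and 89.5 ± 1.21 CPM in tumour Treg, and at 70.8 ± 37.2, 38.1 ± 18.2 and 92.7 ± 54.1 CPM in tumour Tconv. The means of the cell types were close for all 5 genes, and the SD in tumour Tconv was many times that in tumour Treg. In spleen none of the 5 genes reached 6 counts in any library, and Col6a1 had 0 counts in all 4 spleen Treg libraries.

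Fn1, the gene of fibronectin, had the most counts of all 38 genes. It was at 158.4 and 223 CPM in tumour Treg and at 102.9 and 291.2 CPM in tumour Tconv. TB spleen Treg had 1.594 and 3.089 CPM (39 and 73 counts), and no other spleen library passed 0.7642 CPM. Its log2 change at the tumour was 6.35 ± 0.52 in Treg and 9.79 ± 0.74 in Tconv (adjusted p = 9.14e-07 and 7.23e-07), and 8.84 in Tconv without tumour Tconv library 2.

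Sparc, a matrix glycoprotein that binds collagen, was at 73.1 and 94.8 CPM in tumour Treg and at 41.3 and 120.2 CPM in tumour Tconv. It had 0 to 3 counts in 7 spleen libraries and 95 counts (4.84 CPM) in normal spleen Tconv library 1, so 1 library of the normal Tconv group stood alone. Tumour Treg was at least 1345-fold higher than TB spleen Treg, and the Tconv log2 change was 9.63 ± 1.19 (adjusted p = 8.53e-05; 8.65 without tumour Tconv library 2 and 10.45 without TB spleen Tconv library 2).

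The small proteoglycans and matrix proteins behaved alike. Bgn (biglycan) was at 93.6 and 111.1 CPM in tumour Treg and 56.2 and 141.1 CPM in tumour Tconv, with 1 count over both TB spleen Treg libraries and 0 in TB spleen Tconv. Mgp, an inhibitor of calcification, was at 54.2 and 62.8 CPM in tumour Treg and 33.0 and 86.5 CPM in tumour Tconv and had 0 counts in all 4 TB spleen libraries. Dcn (decorin) was at 29.4 and 39.2 CPM in tumour Treg and 17.1 and 47.9 CPM in tumour Tconv. Its only spleen counts were 2 in normal Tconv library 1. Lum (lumican), a proteoglycan related to Dcn, was nearly absent at both sites, with 5 and 17 counts in tumour Treg, 3 and 6 in tumour Tconv and 0 in spleen, and it did not pass the filter on low counts.

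Among the genes that tell apart the cells that make matrix, Pdgfra, the receptor typical of fibroblasts, was at 37.3 and 47.1 CPM in tumour Treg and at 20.2 and 67.4 CPM in tumour Tconv. It had 0 counts in all 4 TB spleen libraries, so tumour Treg was at least 676.1-fold and tumour Tconv at least 640.9-fold higher (279.1-fold without tumour Tconv library 2). Pdgfrb, the receptor of pericytes and also of fibroblasts, was lower, at 7.031 and 6.554 CPM in tumour Treg and 4.568 and 9.571 CPM in tumour Tconv. Its log2 change was 5.95 ± 0.64 in Treg and 4.60 ± 0.56 in Tconv (adjusted p = 1.27e-05 and 4.84e-05). Leaving out either TB spleen library of the same cell type or, for Tconv, tumour Tconv library 2 moved that value by over 1.5 times: to 5.28 and 7.19 in Treg, and to between 3.95 and 6.01 in Tconv.

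Acta2, the actin of smooth muscle and of activated fibroblasts, was the lowest of these and the most even. It stood at 3.038 and 2.84 CPM in tumour Treg and at 3.271 and 3.311 CPM in tumour Tconv, against 0.08902 to 0.5604 CPM in spleen. The log2 changes were 3.31 ± 0.42 and 2.99 ± 0.41 (adjusted p = 2.83e-05 and 7.62e-05; 4.12 in Treg without TB spleen Treg library 2). Postn (periostin), a matrix protein of activated fibroblasts, was at 4.166 and 4.806 CPM in tumour Treg and at 1.523 and 8.392 CPM in tumour Tconv, with at most 3 counts in any spleen library.

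**Figure D2:**
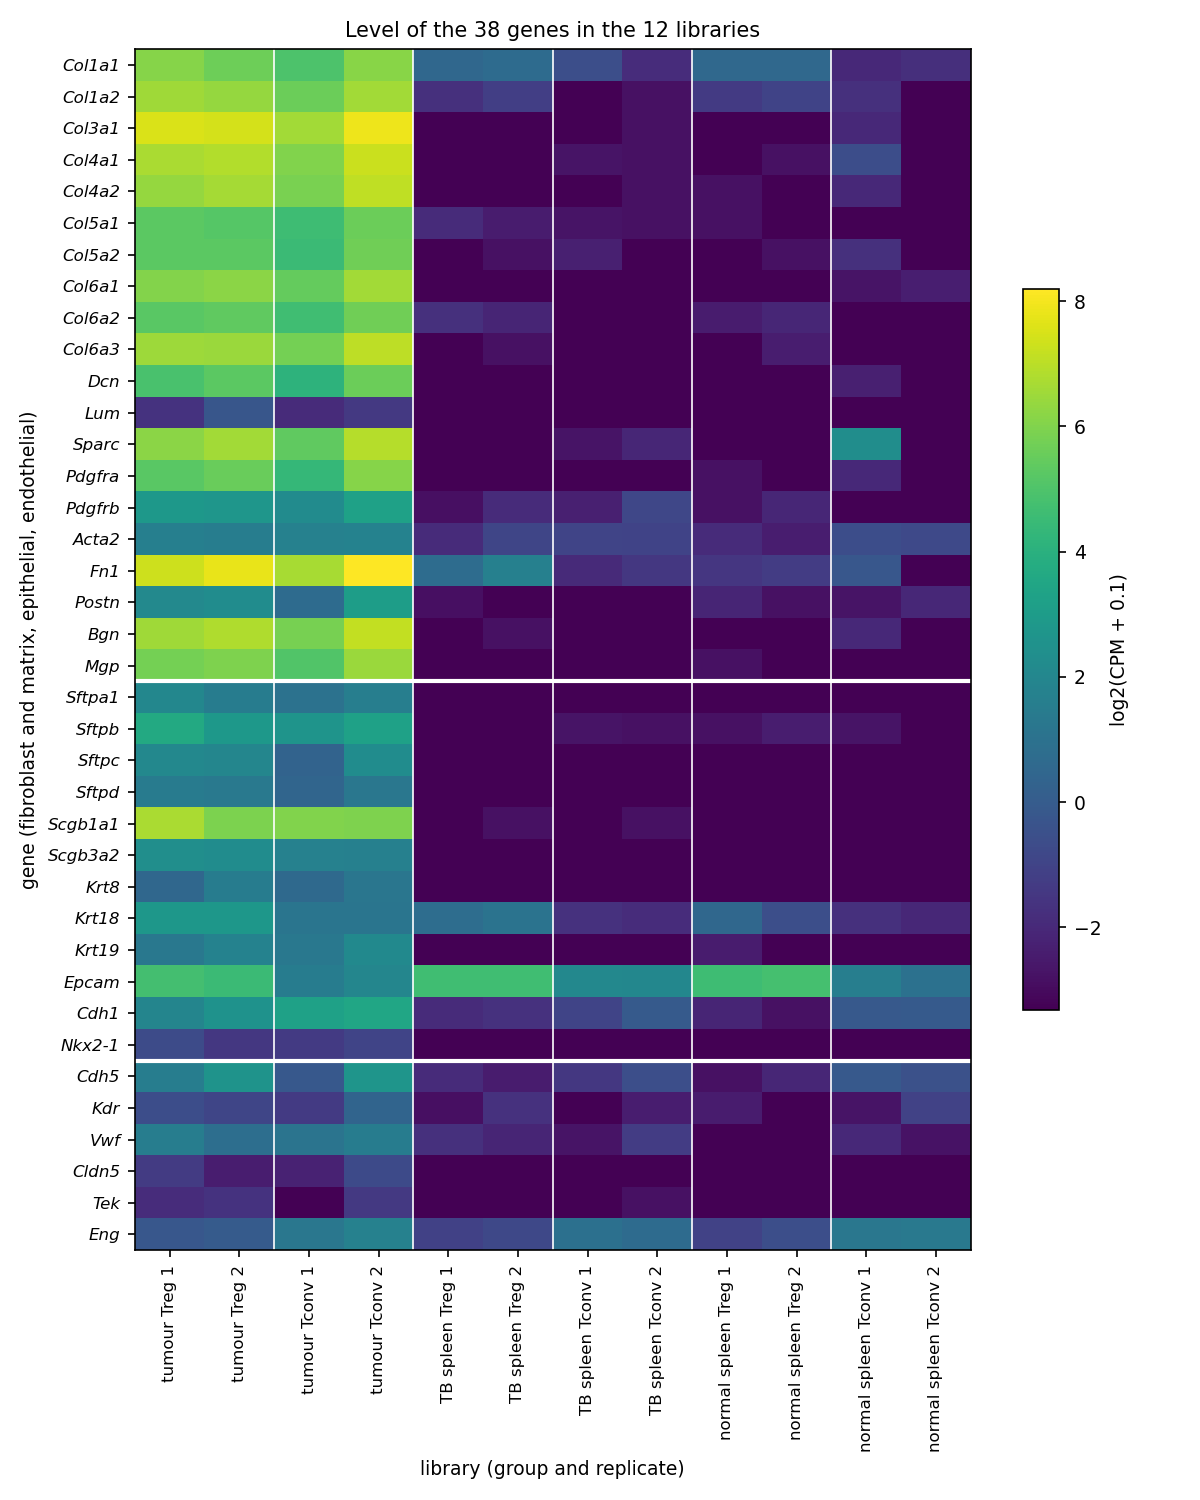
Level of each of the 38 genes (rows, in the order fibroblast and matrix, epithelial, endothelial) in each of the 12 libraries (columns) as log2(CPM + 0.1), where CPM is scaled by TMM. The 4 tumour columns are bright for nearly all fibroblast genes and dark in spleen, Epcam is bright in all 6 Treg columns, and Sparc shows 1 raised spleen library, normal Tconv 1, at 4.84 CPM.

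The epithelial class was carried by Scgb1a1, the secretoglobin of club cells (chromosome 19, 9083636 to 9087958, minus strand, GRCm38). It had 2428 and 1359 counts in tumour Treg libraries 1 and 2 and 1123 and 1389 in tumour Tconv libraries 1 and 2, and 1 count each in TB spleen Treg library 2 and TB spleen Tconv library 2. The other 6 spleen libraries had 0. The tumour to TB spleen ratio was 3965 in Treg (counting interval 711.3 to 156700; adjusted p = 5.79e-08) and 2619 in Tconv (469.7 to 103500; adjusted p = 1.44e-07). Without the TB spleen library that held the count, tumour was at least 672.3-fold higher in Treg and at least 404-fold in Tconv, and without tumour Tconv library 1 or 2 the Tconv ratio was 2613 or 2627. Per kilobase of exon, Scgb1a1 had the highest tumour mean of the 38 genes, at 152.9 CPM per kilobase, followed by Mgp at 49.8, Sparc at 21.7, Col3a1 at 17.7 and Fn1 at 16.6. Scgb3a2, the second secretoglobin, was at 5.034 and 4.675 CPM in tumour Treg and 3.271 and 3.084 CPM in tumour Tconv, and had 0 counts in all 8 spleen libraries.

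The surfactant genes were present in all 4 tumour libraries at lower levels. Sftpb was at 12.7 and 6.99 CPM in tumour Treg and 6.091 and 9.48 CPM in tumour Tconv, with at most 2 counts in any spleen library. Tumour Treg was at least 157.8-fold higher than TB spleen Treg, and the Tconv ratio was 165.3 (counting interval 45.4 to 1371). Sftpc, the surfactant protein specific to alveolar type II cells in adult lung, was at 4.036 and 3.757 CPM in tumour Treg and at 1.184 and 4.717 CPM in tumour Tconv. Sftpa1 and Sftpd were at 3.329 ± 0.82 and 2.525 ± 0.17 CPM in tumour Treg and 2.433 ± 0.73 and 1.754 ± 0.73 CPM in tumour Tconv. Sftpa1, Sftpc and Sftpd had 0 counts in every spleen library. Nkx2-1, the transcription factor that directs lung epithelium, had 12 and 6 counts in tumour Treg, 5 and 9 in tumour Tconv and 0 in spleen, too few to pass the filter. Products of airway cells and of alveolar cells were thus both in each tumour library.

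The bases before the starts of Sftpb and Epcam are shown side by side because these epithelial genes had opposite patterns: Sftpb had 0 counts in both TB spleen Treg libraries, and Epcam was as high there as in tumour Treg. Each run is 150 bases, plus strand, 5′ to 3′, from RefSeq on GRCm38.p6 (Sftpb at chr6:72304460-72304609, Epcam at chr17:87635829-87635978). None of the 4 searched motifs is in either run, so nothing is capitalised:
Sftpb: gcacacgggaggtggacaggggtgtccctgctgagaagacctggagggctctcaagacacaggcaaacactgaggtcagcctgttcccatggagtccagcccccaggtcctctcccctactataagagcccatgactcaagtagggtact
Epcam: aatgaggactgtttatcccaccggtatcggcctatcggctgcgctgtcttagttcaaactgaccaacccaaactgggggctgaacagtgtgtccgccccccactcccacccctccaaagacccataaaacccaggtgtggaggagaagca

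The keratins Krt8, Krt18 and Krt19 form the filaments of simple epithelium. Krt8 was at 1.345 and 2.709 CPM in tumour Treg and 1.41 and 2.177 CPM in tumour Tconv, with 0 counts in spleen. Krt19 was at 2.344 and 3.32 CPM in tumour Treg and 2.312 and 4.355 CPM in tumour Tconv, with 2 counts in all of spleen. Krt18, the filament partner of Krt8, did not follow it: it was at 6.64 and 6.816 CPM in tumour Treg, 2.087 and 2.132 CPM in tumour Tconv, and up to 1.989 CPM in spleen Treg. Krt18 rose at the tumour by a log2 change of 1.89 ± 0.31 in Treg and 3.41 ± 0.46 in Tconv (adjusted p = 2.36e-04 and 7.66e-05).

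Cdh1, the E-cadherin of epithelial junctions, was at 3.689 and 5.767 CPM in tumour Treg and at 9.418 and 11.1 CPM in tumour Tconv, against 0.04451 to 0.2116 CPM in spleen Treg and 0.4169 to 0.8581 CPM in spleen Tconv. Its log2 change at the tumour was 4.62 ± 0.43 in Treg and 3.98 ± 0.36 in Tconv (adjusted p = 2.48e-06 and 3.13e-06; 4.60 in Tconv without TB spleen Tconv library 2). Epcam, an adhesion molecule of epithelium, was the exception of the class. Its log2 difference between tumour and TB spleen was 0.01 ± 0.15 in Treg and -0.25 ± 0.21 in Tconv (adjusted p = 0.966 and 0.350).

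The endothelial genes were low. Cdh5, the cadherin of vessel junctions, led them with 66 and 135 counts in the tumour Treg libraries and 14 and 140 in those of tumour Tconv, against 1 to 5 counts in spleen Treg and TB spleen Tconv library 1 and 13 to 16 in the other spleen Tconv libraries. Tumour Tconv library 1 thus lay within the range of spleen Tconv. The log2 change was 5.07 ± 0.95 in Treg (adjusted p = 6.02e-04; 4.46 without tumour Treg library 2) and 3.06 ± 0.81 in Tconv (adjusted p = 0.00794). The Tconv call ended without tumour Tconv library 2 (log2 change 0.85, adjusted p = 0.368) and without TB spleen Tconv library 1 (adjusted p = 0.0685). The change was 3.87 without tumour Tconv library 1 and 3.77 without TB spleen Tconv library 2.

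Vwf, the von Willebrand factor of endothelium and platelets, was at 2.821 and 1.704 CPM in tumour Treg and 2.03 and 2.767 CPM in tumour Tconv, with at most 7 counts in a spleen library. It rose by 3.72 ± 0.62 in Treg and 3.62 ± 0.62 in Tconv on the log2 scale (adjusted p = 3.15e-04 and 5.73e-04; 2.91 and 5.38 in Tconv without TB spleen Tconv library 1 or 2). Kdr, the main receptor for vascular endothelial growth factor, had 13 and 10 counts in the tumour Treg libraries and 5 and 27 in those of tumour Tconv, against 0 to 8 in spleen. Tumour Tconv library 1 overlapped the spleen range. Kdr passed the test in Tconv (counts 32 to 2, ratio 16.7, counting interval 4.256 to 143.7; adjusted p = 0.0193) and not in Treg (adjusted p = 0.121). Leaving out tumour Tconv library 2 ended the Tconv call (ratio 5.85, adjusted p = 0.221), as did leaving out library 1 of TB spleen Tconv (8.96, 0.111), and without tumour Tconv library 1 the ratio was 25.4.

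Cldn5, a tight junction gene of endothelium, had 7 and 2 counts in tumour Treg, 2 and 11 in tumour Tconv and 0 in all of spleen. Tek, the angiopoietin receptor, had 4 and 5, and 0 and 6, with 1 count in spleen. Neither passed the filter. Eng (endoglin), a co-receptor for TGF-beta, had 18 and 20 counts in the tumour Treg libraries and 40 and 71 in those of tumour Tconv, and spleen Tconv held 34 to 50. Eng did not pass the test in either cell type (log2 0.98 ± 0.41 in Treg, adjusted p = 0.0526; 0.72 ± 0.32 in Tconv, adjusted p = 0.0854).

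Counted over the comparison of tumour with TB spleen, 31 of the 38 genes rose and 0 fell in Treg, where 61.4% of the 13509 tested genes passed, 32.8% higher and 28.7% lower. In Tconv 32 rose and 0 fell by the edgeR test (0 also at an unadjusted p under 0.05 and by DESeq2, as in Treg), where 49.1% of tested genes passed, 26.4% higher and 22.8% lower. By class, all 19 tested fibroblast, mural and matrix genes and 10 of 11 tested epithelial genes rose in both cell types, and 2 (Cdh5, Vwf) and 3 (Cdh5, Kdr, Vwf) of 4 tested endothelial genes. The 34 tested genes were those with enough counts, and most passed that filter only through the tumour libraries, so the counts among tested genes describe the list and support nothing further. Free of that filter, 33 of the 38 genes were higher in all 4 tumour libraries than in all 8 spleen libraries, against 14.2% of the 18189 genes with a count in any library. The 5 others were Epcam, Cdh5, Kdr, Tek and Eng. Because the 38 genes were chosen with earlier results of these data known, the count of 33, too, only describes the list. Without tumour Tconv library 1 or 2, 35 or 31 of the genes rose in Tconv. Tumour and spleen differ in organ as well as in tumour, and these cannot be told apart.

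Genes of the same cell types outside the 38 also moved. Among 32 other matrix and fibroblast genes, 27 of 29 tested rose in Treg and all 29 in Tconv, where 32.8% and 26.4% of all tested genes rose. These lists, too, passed the filter largely through the tumour libraries. Thbs1 and Thbs2, matrix thrombospondins, were the highest of them. Thbs2 was at 220.4 and 264.8 CPM in tumour Treg and at 141.8 and 347.2 CPM in tumour Tconv, with at most 4 counts in a spleen library. Of 23 other lung and airway epithelial genes, 15 of 20 tested rose in Treg and 16 in Tconv, where 1 fell (Abca3, log2 -0.20 ± 0.07, adjusted p = 0.0244). Abca3, a lipid transporter of alveolar cells, was at 80.2 to 98.4 CPM in every library, spleen included, while Bpifa1, a secreted airway protein, was at 10.8 to 19.7 CPM in tumour and had 0 counts in spleen.

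Of 23 other endothelial genes, 11 of 15 tested rose and 2 fell in Treg, where 32.8% of all tested genes rose and 28.7% fell. In Tconv 10 rose and 2 fell, where 26.4% of all tested genes rose and 22.8% fell. The summed counts of this list, scaled as the class sums above, were not higher at the tumour. They ran from 251.9 to 341.1 in the tumour libraries and from 255.3 to 425.0 in the spleen libraries. Pecam1 and Calcrl, both of this list, held 6428 and 2050 of its 8508 counts in normal spleen Tconv library 1. In tumour Tconv library 1 they held 4469 and 655 of 5685, and in tumour Treg library 1 they held 2291 and 832 of 6073. The sum therefore does not show how the rest of the list moved. Pecam1, an adhesion molecule of endothelium that leukocytes also carry, was at 99.4 and 119.8 CPM in tumour Treg and at 197.2 to 327.5 CPM in the spleen libraries. It fell by 0.86 ± 0.09 on the log2 scale in Treg (adjusted p = 4.69e-06), where Cdh5 and Vwf rose. Ednrb, an endothelin receptor, was at 77.5 and 86.2 CPM in tumour Treg, 0.6768 and 0.4536 CPM in tumour Tconv and up to 3.851 CPM in spleen Treg.

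Macrophage and monocyte genes moved beside the fibroblast genes. All 15 tested of 16 listed rose in both cell types, where 32.8% of tested genes rose in Treg and 26.4% in Tconv, and such genes can pass the filter through the tumour libraries alone. Their sum was 460.4 and 607.5 per 1000000 counts in tumour Treg and, in tumour Tconv, 295.3 and 801.8, against 3.927 to 14.9 in spleen. None of the 16 was at 0 in a tumour library except Ms4a7 in tumour Tconv library 1, named after its values were seen. Lyz2 (lysozyme) was at 216.9 and 309.9 CPM in tumour Treg and at 153 and 391.2 CPM in tumour Tconv. The part of macrophage RNA in the levels of the 38 genes was not tested. Fn1, Sparc and others are made by more than the cell type they are listed under, Fn1 by macrophages too.

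The tumour Tconv libraries differed in nearly all fibroblast genes by a similar ratio. The class as a whole was 2.468 times higher in CPM, which is scaled by TMM, in library 2 than in library 1 (counting interval 2.42 to 2.517). Over the 19 genes with at least 100 counts in the pair, the median ratio was 2.389, and 16 of the 19 ratios were between 2 and 3. The exceptions were Acta2 at 1.012, Pdgfra at 3.339 and Postn at 5.511. Collagens as a group gave 2.287 and the 32 other matrix genes 2.388. Over all genes with as many counts the median ratio was 1.005. In tumour Treg the class ratio of library 2 to library 1 was 1.098 (1.08 to 1.115), and the 19 genes with at least 100 counts ran from 0.75 (Col1a1) to 1.408 (Fn1).

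Epithelial genes did not share this ratio. In tumour Tconv the class ratio was 1.149 (1.079 to 1.223). Scgb1a1 gave 0.9948 (0.9189 to 1.077) and Scgb3a2 0.943, so the club cell products were level in the libraries in which collagens differed over 2-fold. The surfactant genes summed to a ratio of 1.861 (1.562 to 2.223), with Sftpc at 3.983. In tumour Treg the class ratio of library 2 to library 1 was 0.6978 (0.6647 to 0.7324), below that of the fibroblast genes as in Tconv. Scgb1a1 was at 0.5635 (0.5269 to 0.6024), Sftpb at 0.5516 and Sftpa1 at 0.7047. The other epithelial genes were not lowered alike: Scgb3a2 was at 0.9286, Sftpc at 0.9309, Sftpd at 0.9077, Epcam at 0.8694 and Krt18 at 1.026, and Krt19, Cdh1 and Krt8 were at 1.417, 1.563 and 2.013. Col3a1 counts were 1.771, 2.97, 1.504 and 3.747 times those of Scgb1a1 in tumour Treg libraries 1 and 2 and tumour Tconv libraries 1 and 2. The mix of fibroblast and airway transcripts therefore differed between libraries of the same group.

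Endothelial genes, at low counts, gave a Tconv ratio of 2.62 (2.081 to 3.325), with Cdh5 at 8.043, Kdr at 4.343, Eng at 1.428 and Vwf at 1.363. Macrophage genes gave 2.642 (2.564 to 2.723) in Tconv and 1.322 in Treg, and mesothelial genes 3.01 and 1.737. T cell genes gave 0.9121 and 1.046. Macrophage, mesothelial and listed endothelial genes thus had, as sums, tumour Tconv ratios near or above that of the fibroblast genes. T cell genes did not. The listed endothelial genes did not share a ratio, and Vwf and Eng lay below that of the fibroblast genes. Smooth muscle and pericyte genes gave 1.712 in tumour Tconv, from 342 and 728 counts in libraries 1 and 2. Of these, Tagln, which spleen libraries also held, had 121 and 152, Kcnj8 53 and 78, and Cspg4 128 and 405. The other endothelial genes gave 1.099 there. Pecam1, which spleen libraries also held, was 4469 of the 5685 counts of that list in library 1 and 5448 of 7767 in library 2. The ratio of the rest of the list was not computed. Other lung and airway epithelial genes gave 0.9921. B cell, platelet and erythroid genes, at low counts, gave 0.9958, 1.434 and 0.7239. What set the difference between the tumour Tconv libraries was not tested.

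**Figure D3:**
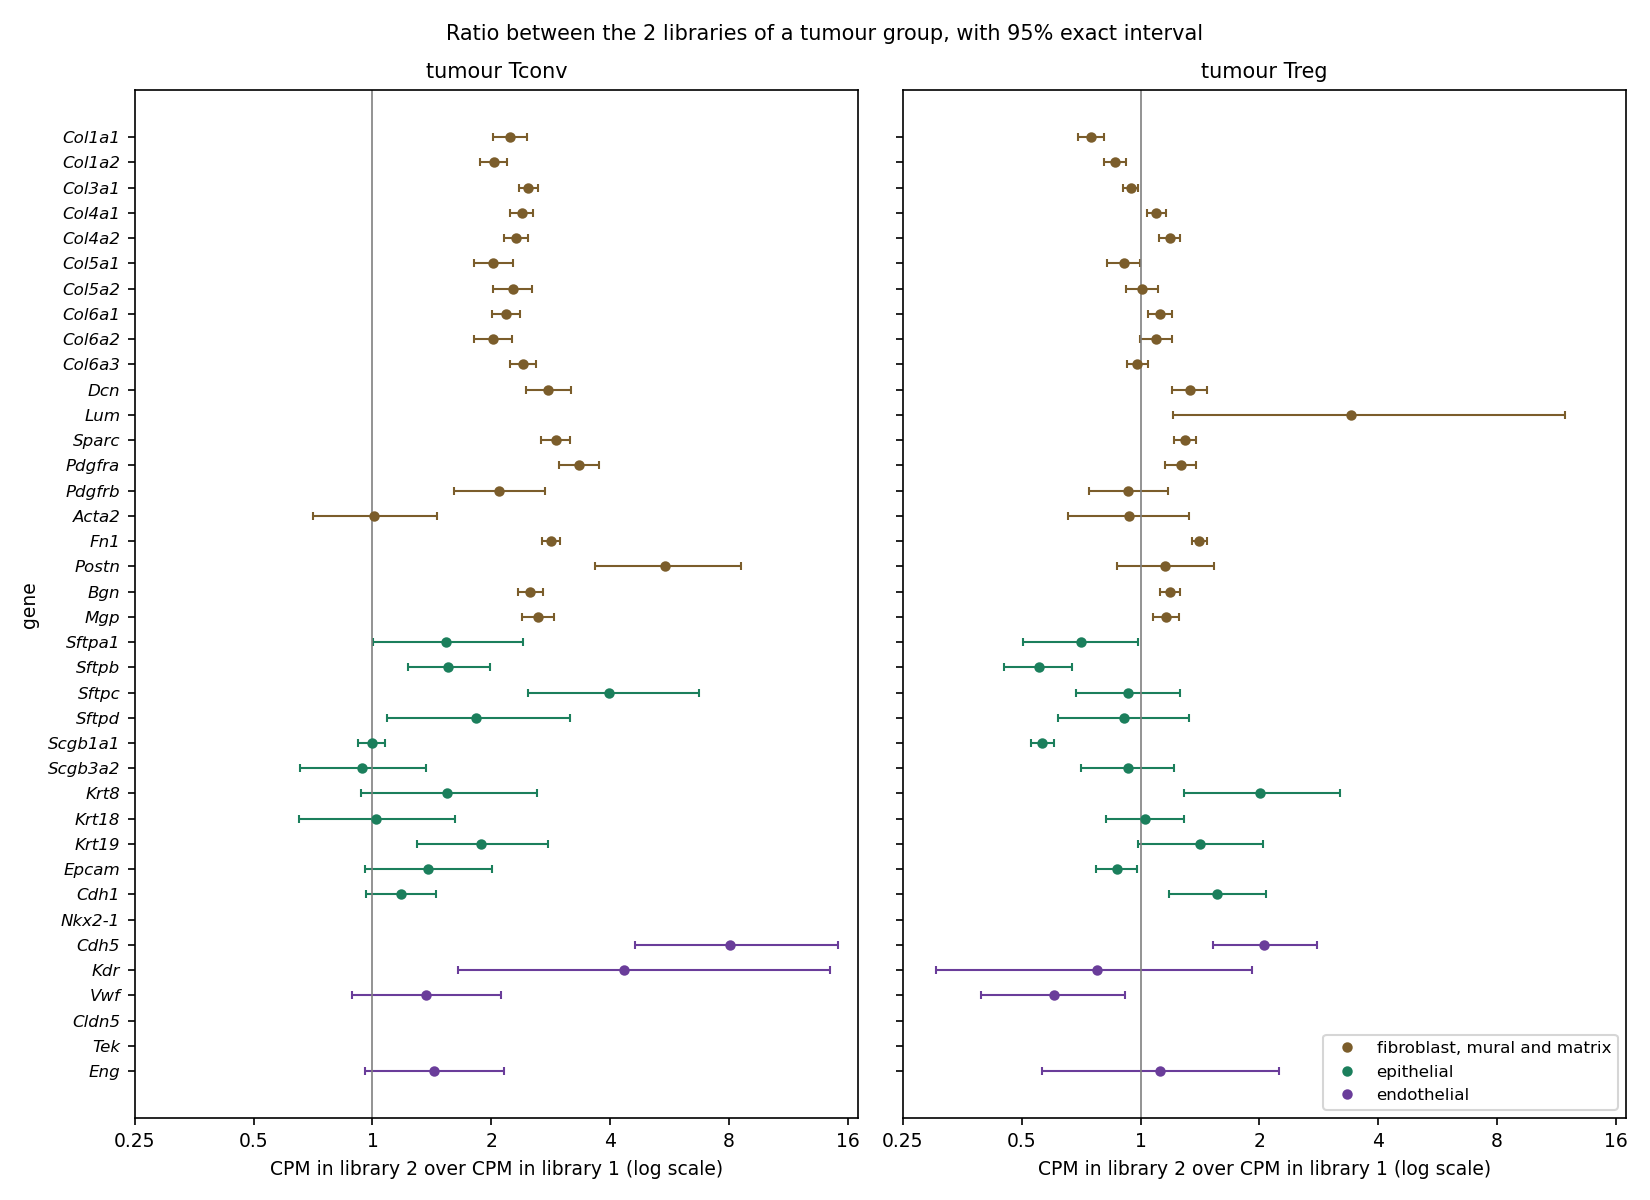
Ratio of CPM in library 2 to CPM in library 1 (log axis) for each gene of the list in tumour Tconv (left) and tumour Treg (right), with exact 95% intervals that cover counting error only; genes with too few counts have no point. In tumour Tconv the fibroblast genes (brown) cluster about a median of 2.389 with Acta2 at 1.012, and Scgb1a1 (green) sits at 0.9948; in tumour Treg the fibroblast genes lie about 1.096 and Scgb1a1 at 0.5635.

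Treg and Tconv of the tumour were then compared. With both Tconv libraries, 2 genes were higher in Treg (Epcam, Krt18) and 2 lower (Cdh1, Eng), where 53.9% of tested genes passed, 27.2% higher and 26.7% lower. None of the 19 tested fibroblast, mural and matrix genes passed, with log2 differences between -0.16 and 0.28. This count rested on which Tconv library was used. Without tumour Tconv library 1, 17 genes passed, 15 of them lower in Treg, and without tumour Tconv library 2, 22 passed, 20 of them higher in Treg. Of the fibroblast genes, Col3a1, Col4a1, Col4a2, Col5a1, Col6a1, Col6a2, Col6a3, Dcn, Pdgfra, Fn1, Postn, Bgn and Mgp passed both times, in opposite directions. The lone Tconv library in these fits is assumed to vary as the other groups do.

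The 4 genes that differed between the cell types at the tumour also differed in both spleens. Epcam (chromosome 17, 87635979 to 87651129, plus strand, GRCm38) was at 26.7 and 23.2 CPM in tumour Treg, 24.9 and 24.8 CPM in TB spleen Treg and 24.3 and 27.6 CPM in normal spleen Treg. In Tconv it was at 2.763 and 3.81, 4.012 and 3.904, and 2.955 and 1.859 CPM at the same sites. The 6 Treg libraries all lay above the 6 Tconv libraries at every site. The log2 difference was 2.91 ± 0.18 in tumour, 2.65 ± 0.18 in TB spleen and 3.43 ± 0.19 in normal spleen (adjusted p = 5.17e-08, 1.75e-07 and 3.09e-08). In spleen Treg, Epcam made up 73.4% to 87.1% of all counts of the 38 genes. Its label as an epithelial marker is therefore not borne out by these libraries, in which it marks Treg.

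Krt18 was also higher in Treg at each site, by 1.67 ± 0.31 in tumour, 3.19 ± 0.46 in TB spleen and 2.44 ± 0.51 in normal spleen on the log2 scale (adjusted p = 6.17e-04, 1.37e-04 and 0.00209; 1.71 in normal spleen without normal Treg library 1). Cdh1 went the other way. It was lower in Treg by a log2 difference of -1.12 ± 0.29 in tumour, -1.75 ± 0.54 in TB spleen and -3.20 ± 0.61 in normal spleen (adjusted p = 0.00557, 0.0200 and 0.00101; -4.07 in normal spleen without normal Treg library 1). The tumour call ended without tumour Treg library 1 (adjusted p = 0.0736), and the TB spleen call, on 9 and 27 counts, ended without either TB spleen Treg library or TB spleen Tconv library 2 (adjusted p = 0.106, 0.0620 and 0.221; log2 -1.13 in the last). Eng was lower in Treg by -1.73 ± 0.34, -1.99 ± 0.38 and -2.27 ± 0.37 at the 3 sites (adjusted p = 9.62e-04, 0.00118 and 3.45e-04).

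**Figure D4:**
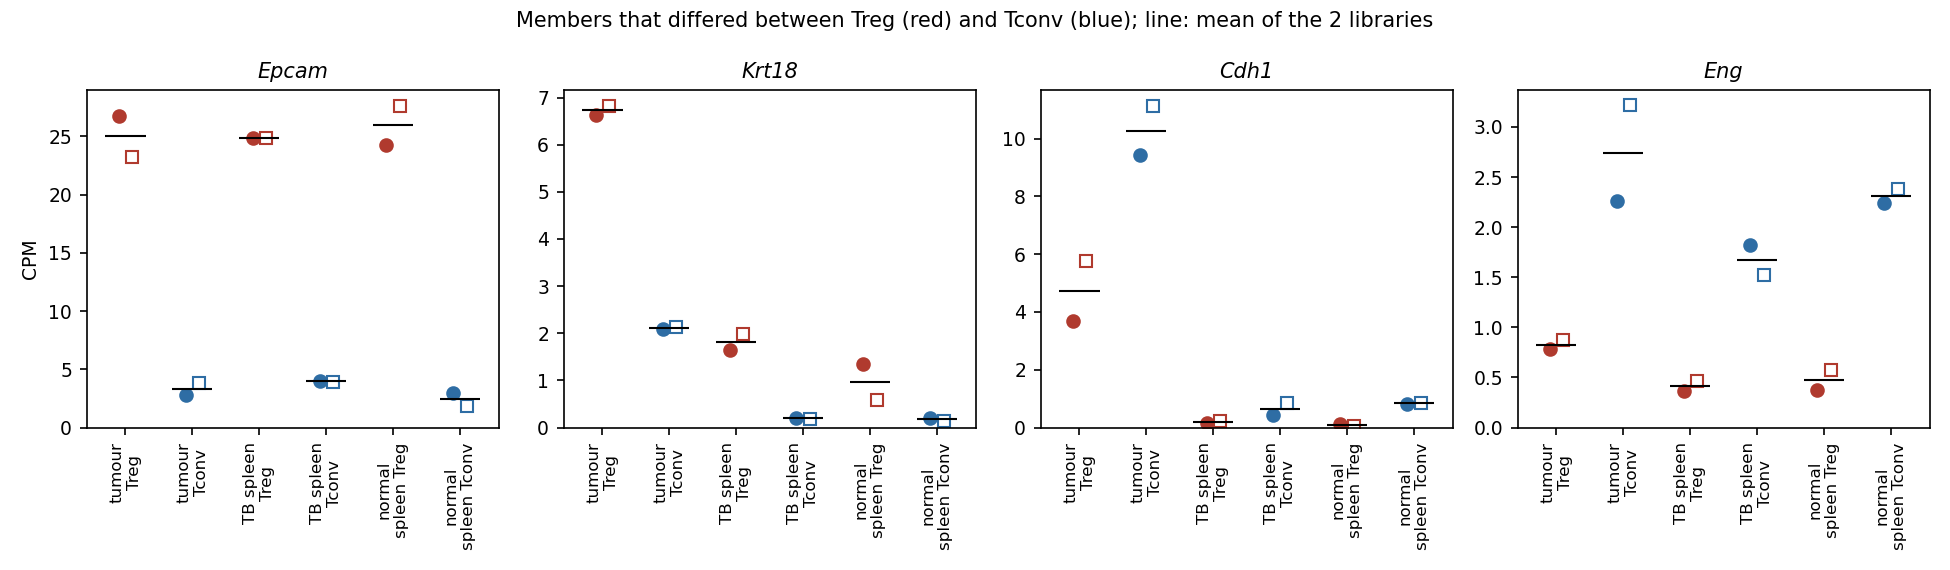
CPM (linear axes that start at 0) of Epcam, Krt18, Cdh1 and Eng in each group; circles are library 1, open squares library 2, lines are the mean of 2 libraries, red is Treg and blue is Tconv. Epcam sits between 23.2 and 27.6 CPM in every Treg library and at or under 4.012 CPM in every Tconv library, and Cdh1 and Krt18 differ by cell type and are also higher in tumour.

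Within TB spleen these 4 genes were the ones that passed (2 higher, 2 lower), where 40.3% of tested genes passed, 21% higher in Treg and 19.4% lower. In normal spleen 3 genes were higher in Treg (Col1a1, Krt18, Epcam) and 3 lower (Acta2, Cdh1, Eng), where 40.6% of tested genes passed, 21.8% higher and 18.7% lower. Most of the 38 genes were at or near 0 in spleen and could not be called there, so these counts are not read against the shares of all tested genes. Col1a1 differed by 2.96 ± 0.91 on the log2 scale from 64 and 7 counts (adjusted p = 0.0204), and lost its call when any 1 of the 4 normal spleen libraries was left out (adjusted p from 0.0548 to 0.0915), while the log2 difference stayed between 2.82 and 3.12. Acta2 differed by -1.96 ± 0.57 from 6 and 21 counts (adjusted p = 0.0160), and lost its call without normal Treg library 2 (0.107) or normal Tconv library 1 (0.0716). In TB spleen Col1a1 had 33 and 36 counts in Treg and 11 and 4 in Tconv (log2 1.97 ± 0.76, adjusted p = 0.0556).

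Few of the 38 genes passed between the spleens of TB and normal mice. Of the 38, 21 had at most 3 counts in every spleen library and could hardly be called. The counts of calls are therefore not read against the shares of all tested genes. In spleen Treg 0 genes passed by edgeR (3 at an unadjusted p under 0.05: Fn1, Krt18 and Vwf), where 15.3% of tested genes passed, 6.8% higher and 8.5% lower, and DESeq2 called 1, Fn1. Fn1 had 39 and 73 counts in TB spleen Treg and 6 and 7 in normal spleen Treg, so the groups did not overlap (log2 3.03 ± 1.27, adjusted p = 0.129 by edgeR). Beside it, Lyz2 had 18 and 61 counts in TB spleen Treg and 3 and 2 in normal spleen Treg. The summed platelet genes had 94 and 119 counts against 31 and 28. Their part in the Fn1 counts was not tested. In spleen Tconv, 1 gene was higher in TB mice (Epcam, log2 0.72 ± 0.22, adjusted p = 0.0430), where 17.2% of tested genes passed, 9.74% higher and 7.49% lower. The Epcam call was lost when any 1 of 7 libraries was left out (0.0567 to 0.349).

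None of the 34 tested genes passed the test of whether the change from TB spleen to tumour differed between Treg and Tconv (0 by edgeR, 3 at an unadjusted p under 0.05, where 24.7% of tested genes passed, 11.7% higher and 13.1% lower). The nearest were Krt18 at -1.52 ± 0.58 (adjusted p = 0.0776), Fn1 at -3.44 ± 1.45 (0.105) and Col1a1 at -1.77 ± 0.81 (0.136). DESeq2 called 2 (Col1a1, Col6a2). Genes with 0 counts in both TB spleen groups, such as Mgp, Dcn, Pdgfra and Scgb3a2, could hardly be called in this comparison. The count of 0 is therefore not read against the share of all tested genes.

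Il33, the alarmin named in the study's title and made by stromal and epithelial cells, was seen beside these genes almost wholly at the tumour. It had 56 and 64 counts in tumour Treg, 10 and 61 in tumour Tconv and a single count in all of spleen. Its ratio between tumour Tconv libraries was 4.906 (2.495 to 10.7), above 1 like that of the fibroblast genes, and its source was not tested.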

How the data were processed

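Messenger RNA of 12 libraries was counted per gene. The authors deposited raw read counts as whole numbers in 1 table, 1 column per library, with no scaling; per the submitters' processing notes STAR, featureCounts and mm10 were used, with no versions, and per the labels' protocols the kit was stranded. Whether featureCounts used strand is not given here. In GENCODE M21 (GRCm38), 30 of the 38 genes share no exonic bases with another gene, and the largest overlap is 6.21% of exonic bases (Pdgfra, antisense). The 38 genes and the other lists were chosen with earlier results of these data known.

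Counts were analysed with edgeR 4.0.16 in R 4.3.3: filterByExpr by group, TMM scaling (factors 0.942 to 1.07), 1 quasi-likelihood fit of 6 group means over 12 libraries (6 residual degrees of freedom), and two-sided F tests adjusted over all 13509 tested genes (Benjamini-Hochberg, threshold 0.05). Every adjusted p in the text is from this test unless DESeq2 is named. CPM and ratios between libraries or groups use TMM-scaled totals, and class sums use plain totals. Errors of log2 fold changes are SE. Lower bounds use a floor of 3 counts over the group. Intervals are exact (Clopper-Pearson, 95%) and, like the floor, cover counting error only. Replicates differed more than counting allows (chi-square per gene 3.56 to 17.0). Replicate numbers were not used to pair libraries: over all pairs of groups, correlations of same-numbered deviations ran from -0.107 to 0.188 (0.133 to 0.188 between Treg and Tconv of a site), and the labels give no shared mouse. The numbers are those of the sample titles. For normal mice the descriptions number some libraries otherwise, so these correlations and the replicate block can join libraries with unlike description numbers there. All 38 genes are accounted for, and other genes were named as the check of the sort, as Il33, or as up to 3 of a list's genes with the highest mean CPM. The script was tested on simulated counts. Alternatives were DESeq2 1.42.0, library-size scaling, other filters, a replicate block, fits of only the groups compared and leaving out each library. Promoter letters were read from RefSeq (23 of 38 genes matched), and protein sequences were not analysed here.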

Additional observations from a re-analysis of the deposited data

How the results depend on the processing

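No called result changed direction under any alternative. Fibroblast genes not called between tumour Treg and Tconv differed in opposite directions without tumour Tconv library 1 or 2. For tumour against TB spleen, leaving out each library gave 32 to 35 genes in Treg and 30 to 35 in Tconv. DESeq2 lost Sftpc in both (log2 9.03 and 8.40, adjusted p = 0.137 and 0.202). For tumour Treg against Tconv the range was 3 to 22. For Treg against Tconv it was 3 to 8 in TB spleen, where DESeq2 called 7 (adding Col1a1, Col6a2 and Fn1), and 4 to 9 in normal spleen. For TB against normal spleen it was 0 to 1 in Treg, where DESeq2, no filter, a replicate block and the fit of only these groups each called 1 (Fn1), and 0 to 2 in Tconv, where DESeq2 and no filter called 2 (adding Pdgfrb). For the difference of site changes it was 0 to 4; DESeq2 called 2, and no filter, the replicate block and the fit of only these groups 1 each. The replicate block changed no count at the tumour (31, 32 and 4 genes). It added Fn1 between Treg and Tconv of TB spleen (5 genes) and Cdh5 in normal spleen (7 genes), and between TB and normal spleen Tconv it added Pdgfrb and lost Epcam (adjusted p = 0.0504). The cause of these changes was not tested.

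Summed shares, in percent of the total count, moved when the most counted gene or 1 library was left out. For fibroblast genes they became, without that gene, 0.1088 in tumour Treg (from 0.127), 0.0002649 and 0.0001211 in TB spleen Treg and Tconv, 0.0001232 in normal spleen Treg, and 0.0002041 in normal spleen Tconv without Sparc (from 0.0004414; 8.855e-05 without library 1). The tumour Tconv share (0.1246) was 0.1787 or 0.07049 without library 1 or 2. For epithelial genes they became 0.006315 and 0.003757 in tumour Treg and Tconv without Scgb1a1 (from 0.01418 and 0.00979), and, without Epcam, 0.0002158 and 9.265e-05 in TB spleen and 0.0001175 and 0.0001014 in normal spleen (Treg, then Tconv). TMM scaling gave 0.002687 in TB spleen Treg (from 0.002868). For endothelial genes they became 0.0003803 and 0.0006069 in tumour Treg and Tconv without Cdh5 (from 0.0007985 and 0.0009515) and, without Eng, 4.441e-05 and 6.924e-05 in TB spleen and 1.319e-05 and 0.0001012 in normal spleen. Lum, Nkx2-1, Cldn5 and Tek had too few counts to be tested, and spleen levels rest on a few counts per gene.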

Other observations

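Mesothelial genes, which line the pleura, were also read at the tumour. Msln (mesothelin) had 91 and 167 counts in the tumour Treg libraries and 44 and 160 in those of tumour Tconv, and 0 counts in all 8 spleen libraries. Of 5 listed genes 4 were tested. In tumour against TB spleen Treg 3 rose and 1 fell (Lrrn4, log2 -0.84 ± 0.29, adjusted p = 0.0232 by edgeR), where 32.8% of all tested genes rose and 28.7% fell. In Tconv 2 rose and the other 2 did not pass, where 26.4% rose and 22.8% fell. Of 10 smooth muscle and pericyte genes 6 were tested, and 6 rose in Treg and 4 in Tconv, beside the same shares. Tagln, the highest of them by mean CPM, differed little by site. It was at 6.076 to 7.034 CPM in tumour and 3.383 to 6.201 CPM in spleen. Its log2 change was 0.54 ± 0.20 in Treg and 0.21 ± 0.20 in Tconv (adjusted p = 0.0323 and 0.404 by edgeR). Cspg4, a pericyte proteoglycan, was at 13.5 and 13.3 CPM in tumour Treg and 7.219 and 18.4 CPM in tumour Tconv, with 5 counts in normal spleen Tconv library 1 and 0 in the other 7 spleen libraries. That spleen library was also the one with 95 counts of Sparc and 11 of Col4a1. Kcnj8, a potassium channel gene of pericytes, was at 0.5642 and 0.3495 CPM in tumour Treg and at 2.989 and 3.538 CPM in tumour Tconv, and in spleen at most 0.08176 CPM in Treg and 0.5604 to 1.526 CPM in Tconv. Hbb-bs, the beta globin of red cells, had 0 counts in all 12 libraries.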
